A study of Rattus norvegicus with 6 samples.

Results

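Neurons of dorsal root ganglia (DRGs) release peptides beside glutamate, and 10 genes for such peptides other than calcitonin gene-related peptide (CGRP) were followed here after ablation of the perirenal adipose tissue (PRATA). The genes were taken by name from a table of raw read counts, and all 10 were present among its 25689 genes. They were read as 5 constitutive peptide genes (Tac1, Adcyap1, Nppb, Nmb and Sst), 3 peptide genes linked to nerve injury (Gal, Npy and Vip), and Penk and Scg2. The RNA came from neurons separated out of the L1 and L2 ganglia of spontaneously hypertensive rats (SHRs), labelled as wild type and aged 6 to 8 weeks, with 3 samples collected 4 weeks after PRATA and 3 from sham-operated SHRs. The study's methods give the rats an older age at purchase than these labels do. Normotensive rats were not sequenced, so both groups share the hypertensive strain, the abdominal operation, the enzymatic digestion of the ganglia and some hours on a culture dish. The labels do not say how many rats each sample holds, and the p-values therefore measure only the spread between these samples.

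Neuropeptides are made as longer precursors, which prohormone convertases cut inside dense-core vesicles, and they are released on strong firing to act on G protein-coupled or guanylyl cyclase receptors. Small peptidergic neurons of the DRG hold substance P, PACAP and CGRP under resting conditions, and several of these peptides widen blood vessels. Galanin, neuropeptide Y and VIP are scarce in intact DRG neurons and are well known to appear in them after a peripheral nerve is cut, together with transcription factors such as Atf3 and Sox11.

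Total counts lay between 5892967 and 15226952 per sample, and 3 reads correspond to between 0.207 and 0.468 CPM, the unit of all levels below (counts scaled to a common library size, with edgeR's TMM correction for composition). Levels are given for replicates 1, 2 and 3 of a group in this order. Changes are given as log2 fold changes, PRATA relative to sham, from edgeR's quasi-likelihood test (two-sided, Benjamini-Hochberg adjustment over the 14919 genes that passed a filter on low counts). All 26 sensory neuron markers listed were tested, among them Tubb3 at 1588, 1729 and 1847 CPM in the PRATA group against 874, 1127 and 946 CPM in the sham group. Neuronal RNA was thus present in every sample. Markers of other cells were present too, such as the glial marker Apoe at 2779 to 7473 CPM. Of the 26 neuron markers 25 had a positive and 1 a negative log2 fold change (median 0.51, against 0.03 over all genes tested). A lower share of neurons in a sample and less of an RNA in each neuron cannot be told apart in such bulk samples. Libraries stood apart in other ways too. The signal recognition particle RNA gene Rn7sl1 took 5.40% of the counts in PRATA replicate 3 and 5.63% in sham replicate 1, and sham replicate 2 exceeded every other sample more than 3 times in 158 genes, against 5 to 12 genes in the other samples.

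All 10 peptide genes passed the filter on low counts. None had an adjusted p under 0.05 in edgeR (0 of 10, beside 0% of all genes tested). An unadjusted p under 0.05 was found for Adcyap1, Scg2 and Vip, all higher after PRATA (3 of 10, beside 18.3% of all genes tested in either direction and 8.19% in this direction). DESeq2 gave an adjusted p under 0.05 to 1 of them, Adcyap1, limma voom with sample quality weights to 2, Adcyap1 and Scg2, and limma-trend to 0. Adcyap1 and Vip also had an absolute log2 fold change over 1 beside that unadjusted p, thresholds which 4.4% of all genes passed, 1.17% upward and 3.23% downward. A log2 fold change above 0 was found for 8 of the 10, beside 52% of all genes. The groups did not overlap for 1 of the 10 genes, Adcyap1, beside 22.8% of all genes tested and 11.6% with PRATA higher.

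**Figure D1:**
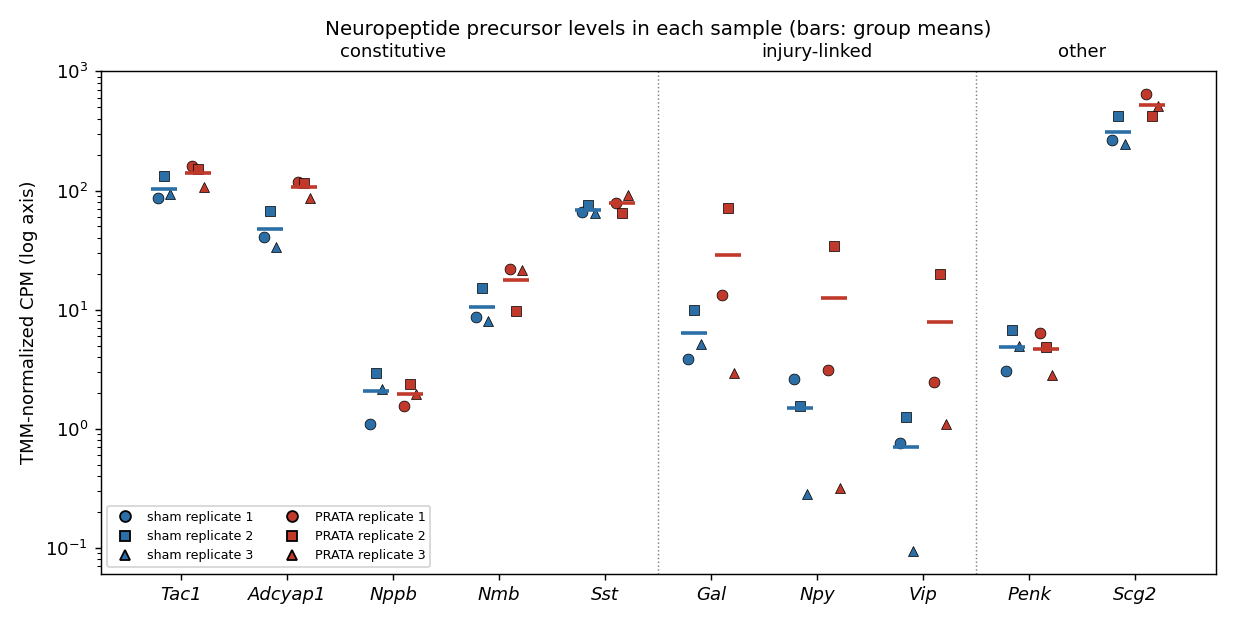
Normalized level of each precursor in each sample, in TMM-normalized CPM on a log axis (blue, sham; red, PRATA; circle, square and triangle, replicates 1, 2 and 3; bars, group means of 3 samples). Gal, Npy and Vip stand far higher in PRATA replicate 2 (square) than in the other 5 samples, while Adcyap1 is the gene whose groups do not overlap.

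Among the constitutive peptides, Adcyap1 (ENSRNOG00000049882), which encodes PACAP, a vasodilating peptide of the secretin family, differed most relative to its spread. PRATA samples held 119, 114.6 and 86.8 CPM of it, and sham samples 40.6, 67.0 and 33.8 CPM. Every PRATA sample thus lay above every sham sample, with sham replicate 2 the closest. The group means were 106.8 ± 17.5 CPM and 47.1 ± 17.5 CPM (SD, n = 3 each), a ratio of 2.27. In edgeR this gave a log2 fold change of 1.18 with a standard error of 0.27 (adjusted p = 0.156), and the exact permutation test gave p = 0.10, the smallest that 3 samples against 3 allow. Over 16 alternatives the log2 fold change of Adcyap1 ranged from 1.002 to 1.52 and the adjusted p from 0.00601 (DESeq2) to 0.550 (edgeR without PRATA replicate 1). Without PRATA replicate 3 and sham replicate 1, the samples with the high Rn7sl1 share, it was 1.22 (edgeR adjusted p = 0.208). Leaving out sham replicate 2, the sham sample with the most Adcyap1, gave 1.52 (edgeR adjusted p = 0.0278), the only omission of a single library that took Adcyap1 past the threshold.

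Tac1 (ENSRNOG00000007374), the precursor of substance P and neurokinin A, was at 162.1, 152.9 and 106.7 CPM after PRATA and at 86.8, 132.0 and 93.3 CPM in the sham group. PRATA replicate 3 lay below sham replicate 2, so the groups overlapped. The log2 fold change of 0.43 (standard error 0.23, edgeR adjusted p = 0.354) had an interval (estimate plus or minus 1.96 standard errors) from -0.03 to 0.90. The 3 genes whose centred profile over the 6 samples lay nearest to that of Tac1 were Pdlim2, Bhlhb9 and Tafa4, with root mean square differences of 0.05, 0.06 and 0.07 on the log2 (CPM + 1) scale. The added 1 damps low genes such as Pdlim2, with 12 to 35 reads per sample. Its edgeR log2 fold change was 0.73.

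Nmb (ENSRNOG00000011011), which encodes the bombesin-like peptide neuromedin B, was at 21.8, 9.80 and 21.4 CPM after PRATA and at 8.71, 15.1 and 8.03 CPM in the sham group. PRATA replicates 1 and 3 exceeded all sham samples, whereas PRATA replicate 2 lay within the sham range. Its log2 fold change was 0.75 with all samples (standard error 0.37, edgeR adjusted p = 0.325) and 1.04 without PRATA replicate 2 (standard error 0.32, edgeR adjusted p = 0.291).

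Sst (ENSRNOG00000001837), the somatostatin precursor, stood at 78.5, 64.2 and 91.1 CPM after PRATA and 65.9, 74.9 and 64.3 CPM in the sham group. A log2 fold change of 0.19 resulted, with an interval from -0.16 to 0.54, and the groups overlapped. Nppb (ENSRNOG00000008141), which encodes B-type natriuretic peptide, a transmitter of itch-sensing neurons, was close to the filter at 1.55, 2.39 and 1.98 CPM after PRATA and 1.10, 2.97 and 2.17 CPM in the sham group. With 12 to 30 reads per sample, the interval of its log2 fold change ran from -0.97 to 0.90, and its sign depended on single samples. Differences within these bounds, in either direction, are compatible with these values at this depth and spread. The bounds are not a limit of detection, and larger differences could also be missed.

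Scg2 (ENSRNOG00000015055) encodes secretogranin II, a granin of dense-core vesicles that is cut to secretoneurin. PRATA samples held 645.9, 421.0 and 515.7 CPM of it, and sham samples 263.9, 422.5 and 244.5 CPM. Only PRATA replicate 2 and sham replicate 2, which were nearly equal, crossed between the groups. The log2 fold change was 0.77 (standard error 0.28, edgeR adjusted p = 0.222). Penk (ENSRNOG00000008943), the enkephalin precursor, was at 6.33, 4.86 and 2.85 CPM after PRATA and 3.04, 6.71 and 4.91 CPM in the sham samples, which gave a log2 fold change of -0.05, with an interval from -0.87 to 0.76.

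The 3 injury-linked peptides had the largest log2 fold changes of the 10 genes, and for each of them PRATA replicate 2 set the group mean. Gal (ENSRNOG00000015156), which encodes galanin, was at 13.2, 70.8 and 2.93 CPM in the PRATA group, from 102, 888 and 37 reads. In the sham group it was at 3.87, 9.99 and 5.195 CPM. PRATA replicate 2 thus held 5.37 times the level of the next sample, whereas PRATA replicate 3 was the lowest of all 6.

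Npy (ENSRNOG00000046449), the precursor of neuropeptide Y, was at 3.10, 33.9 and 0.316 CPM after PRATA, from 24, 426 and 4 reads, and at 2.63, 1.56 and 0.283 CPM in the sham group. PRATA replicate 2 reached 10.96 times the next sample, and the other PRATA samples spanned nearly the same range as the sham samples. Vip (ENSRNOG00000018808), which encodes vasoactive intestinal peptide, a relative of PACAP, was at 2.45, 20 and 1.11 CPM after PRATA, from 19, 251 and 14 reads, and at 0.760, 1.25 and 0.0945 CPM in the sham group, from 11, 8 and 1 reads. PRATA replicate 2 held 8.15 times the level of the next sample, and PRATA replicate 3 lay below sham replicate 2.

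With all samples the log2 fold change was 2.23 for Gal (standard error 0.98, edgeR adjusted p = 0.275), 3.03 for Npy (standard error 1.38, edgeR adjusted p = 0.289) and 3.56 for Vip (standard error 1.19, edgeR adjusted p = 0.200). In limma-trend, log2 (CPM + 1) is averaged over samples, which gives 1 high sample less weight, and the added 1 damps low genes. There the differences were 1.20, 1.33 and 1.71, and with voom sample quality weights 1.37, 2.07 and 3.40. Without PRATA replicate 2 the edgeR values were 0.35 for Gal, 0.13 for Npy and 1.37 for Vip (edgeR adjusted p = 0.830, 0.967 and 0.495). The size of the group difference in these peptides therefore rested on 1 library. Without PRATA replicate 3 and sham replicate 1 the edgeR values were 2.51, 4.501 and 4.29 (edgeR adjusted p = 0.228, 0.206 and 0.215).

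**Figure D2:**
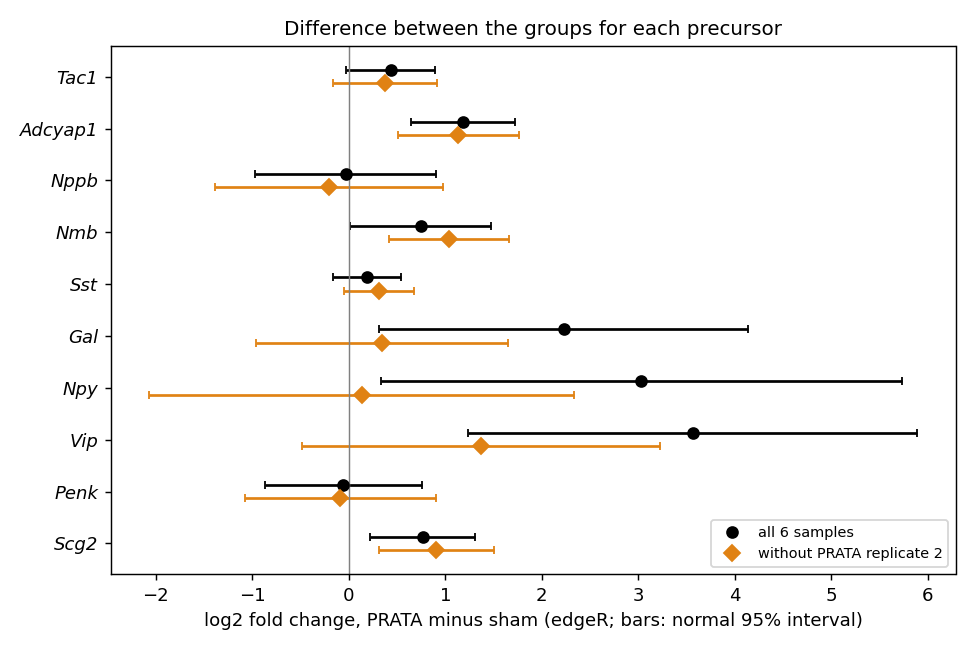
Log2 fold change of each precursor, PRATA relative to sham, from edgeR with all 6 samples (black circles) and without PRATA replicate 2 (orange diamonds), with bars that span 1.96 standard errors each way. Such bars are narrower than edgeR's test implies for so few samples. With all samples those of Gal, Npy and Nmb exclude 0, although the unadjusted edgeR p was 0.0512, 0.0584 and 0.0807. Gal, Npy and Vip move from 2.23, 3.03 and 3.56 to 0.35, 0.13 and 1.37, while Adcyap1 moves only from 1.18 to 1.13.

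Set against each other, the mean log2 (CPM + 1) of the 5 constitutive genes minus that of the 3 injury-linked genes was 2.74, -0.16 and 4.01 in the PRATA group, against 2.80, 3.08 and 3.47 in the sham group. PRATA replicate 2 was the only sample in which the injury-linked mean exceeded the constitutive mean, and PRATA replicate 3 had the highest value of all, so the PRATA samples lay on both sides of the sham range. The constitutive mean alone was 5.29, 5.07 and 5.16 after PRATA and 4.45, 5.08 and 4.51 in the sham group. In PRATA replicate 2 the constitutive peptides therefore stood at a level near that of the other PRATA samples and of sham replicate 2, while the injury-linked peptides were high.

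The letters upstream of 4 of these genes are shown because 3 of them, Gal, Npy and Vip, were high together in a single library, and because the window of Scg2 is the only one of the 9 matched that holds the full cAMP response element. They are the 250 bases before the annotated start in RefSeq (build GRCr8), 5′ to 3′ on the gene's strand. Of the 10 genes 9 were matched, and Penk was not. Letters past the annotated start were not searched, so the choice of Scg2 depends on where the annotation places each start. Capitals mark the cAMP response element (TGACGTCA), its core (TGACG or CGTCA, which the full element contains) and the TATA box letters (TATAAA), each searched on both strands.
Gal, chr1:210084573-210084822, minus strand: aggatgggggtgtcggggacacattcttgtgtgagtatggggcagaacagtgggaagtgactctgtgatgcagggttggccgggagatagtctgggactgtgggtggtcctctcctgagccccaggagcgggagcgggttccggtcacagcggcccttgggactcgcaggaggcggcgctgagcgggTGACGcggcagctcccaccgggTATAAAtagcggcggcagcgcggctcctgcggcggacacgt
Npy, chr4:80211861-80212110, plus strand: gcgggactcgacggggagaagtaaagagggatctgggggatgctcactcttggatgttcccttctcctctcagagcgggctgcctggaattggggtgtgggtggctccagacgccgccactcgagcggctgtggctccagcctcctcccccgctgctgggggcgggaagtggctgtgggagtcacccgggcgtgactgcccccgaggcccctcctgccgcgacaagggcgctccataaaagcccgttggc
Vip, chr1:44470230-44470479, plus strand: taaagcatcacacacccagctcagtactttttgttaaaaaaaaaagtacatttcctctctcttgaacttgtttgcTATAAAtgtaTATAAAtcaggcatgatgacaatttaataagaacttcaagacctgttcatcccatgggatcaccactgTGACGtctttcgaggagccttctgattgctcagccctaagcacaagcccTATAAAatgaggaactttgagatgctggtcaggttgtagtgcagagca
Scg2, chr9:88256867-88257116, minus strand: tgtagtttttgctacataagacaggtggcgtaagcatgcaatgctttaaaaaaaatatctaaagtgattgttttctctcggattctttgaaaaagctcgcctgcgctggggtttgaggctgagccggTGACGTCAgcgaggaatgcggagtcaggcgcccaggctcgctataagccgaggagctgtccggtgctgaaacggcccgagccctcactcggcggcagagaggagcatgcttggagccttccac

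The full cAMP response element, the binding site of CREB, was found in 1 of the 9 windows, that of Scg2, where it begins at base -123, and in 1.59% of all 33469 windows of the same length. Its core was found in 4 of the 9, at base -63 in Gal, -97 in Vip and -206 in Tac1 beside Scg2, and in 18.2% of all windows. The AP-1 element (TGANTCA), the site of Jun and Fos dimers, was found in 0 of the 9 and in 6.34% of all windows. TATA box letters were found in 4 of the 9 and in 12.9% of all windows, the nearest to the start being at -41 in Gal and -48 in Vip. The windows of Gal, Npy and Vip share none of these motifs, since the Npy window holds no match. Letters outside the windows were not searched, and whether the annotated starts are those used in DRG neurons was not tested. A window without the full cAMP response element, such as that of Sst, therefore does not show that the gene lacks it.

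A stand-out of PRATA replicate 2 was not common among all genes. Only 12 of the 14919 genes tested (0.0804%) exceeded 3 times the level of every other sample there, and Gal, Npy and Vip were 3 of these 12, a threshold chosen after the values were seen. The other 9 were Stac2, Csrp3, Ankrd1, Ptprh, Lrrc4b, C1qa, Pld4, Cyp2s1 and LOC100911733. The profiles nearest to that of Gal over the 6 samples were those of Stac2, Ankrd1 and Vip, with root mean square differences of 0.36, 0.43 and 0.53 on the log2 (CPM + 1) scale. Stac2, an adaptor protein gene, was at 35.1 CPM in PRATA replicate 2 and between 1.26 and 4.52 CPM in the other 5 samples. Ankrd1, a nuclear ankyrin repeat protein gene, was at 9.88 CPM there against 0.207 to 1.81 CPM elsewhere, and Csrp3, a LIM protein gene that axotomized neurons are known to switch on, at 29.6 CPM against 0.624 to 1.81 CPM.

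The nerve injury response list, 26 genes written from general knowledge, had its highest value in PRATA replicate 2 for 15 of 23 genes tested (65.2%, beside 11.7% of all genes). The same library was also the highest for 10 of 18 satellite glia and Schwann cell markers (55.6%) and for 4 of 11 macrophage markers tested (36.4%), and the part of these cells in the injury response values was not tested. Between the groups, 16 of these 23 genes had a positive and 7 a negative log2 fold change, with a median of 0.67 that was 0.24 without PRATA replicate 2. An unadjusted p under 0.05 was found for 10 upward and 2 downward (beside 8.19% and 10.1% of all genes), and 0 had an adjusted p under 0.05 in edgeR.

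Members of this list followed different patterns over the samples. Ecel1, an injury-induced endopeptidase gene, was at 36.6 CPM in PRATA replicate 2 and between 4.08 and 12.6 CPM in the others. Atf3, the stress-induced transcription factor gene, was at 278, 328 and 108 CPM after PRATA and 125.1, 82.7 and 56.5 CPM in the sham group, so that PRATA replicates 1 and 2 were both high. Ecel1 and Atf3 are named here after their values were seen. Sox11 was at 28.0, 33.9 and 21.6 CPM after PRATA and 9.81, 10.8 and 9.07 CPM in the sham samples, which amounted to 1.496 on the log2 scale (adjusted p = 0.156 in edgeR), and Bdnf, a neurotrophin gene, at 50.9, 38.3 and 47.3 against 24.7, 24.7 and 22.5 CPM, with a log2 fold change of 0.93. Both had groups that did not overlap, as for 11.6% of all genes with PRATA higher. PRATA replicate 2 was not apart from the other PRATA samples for either. The cytokine genes Lif and Csf1 had log2 fold changes of -1.72 and -0.80. Their groups did not overlap either, as for 11.2% of all genes with PRATA lower.

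**Figure D3:**
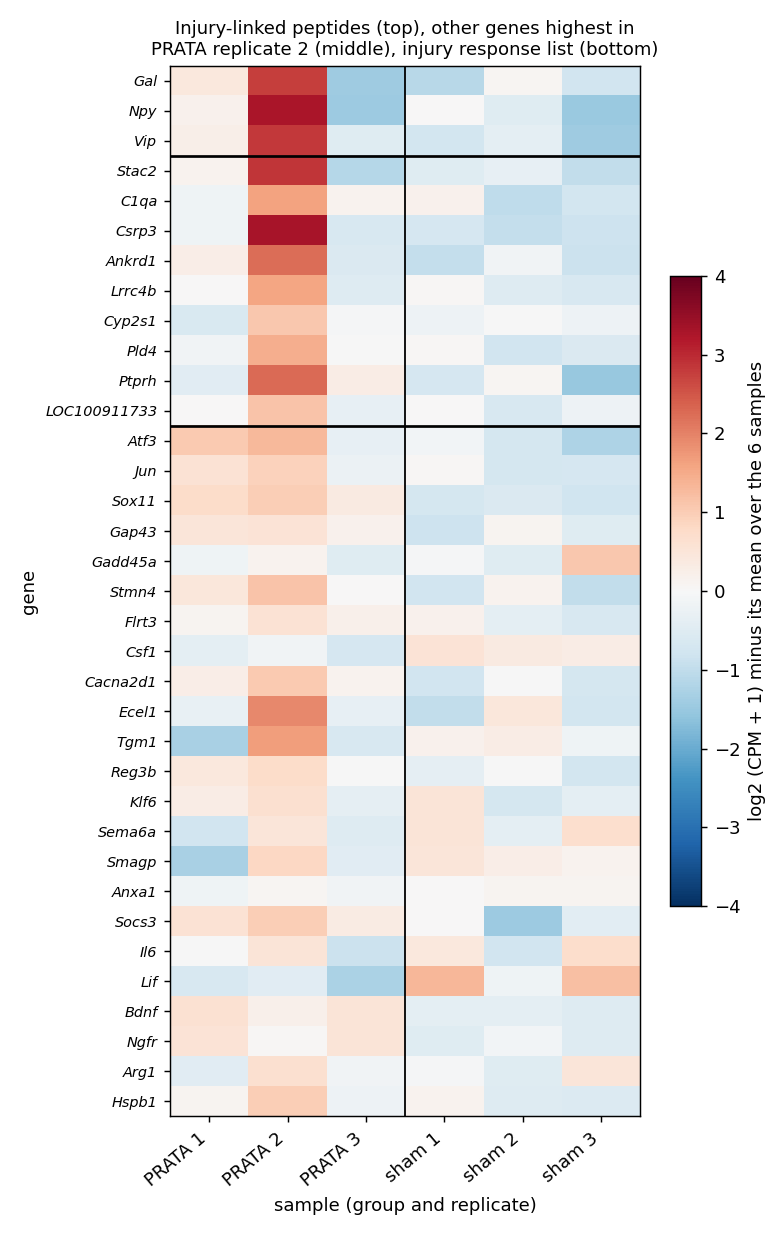
Log2 (CPM + 1) of each gene minus its mean over the 6 samples (color scale; columns, samples by group and replicate) for Gal, Npy and Vip (top block), the other 9 genes over 3 times higher in PRATA replicate 2 than in any other sample (middle block) and the 23 tested genes of the injury response list (bottom block). The PRATA replicate 2 column is the reddest in the top and middle blocks, and it is the highest sample for 15 of the 23 genes in the bottom block.

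Marker genes of other cells were read in the same samples. Npy is also abundant in sympathetic neurons, and their defining genes were at or near 0 in PRATA replicate 2, with 1 read (0.0797 CPM) for Dbh, 9 reads (0.717 CPM) for Th and 2 reads for Phox2a. Of 12 sympathetic markers listed, 10 were in the table, and their summed level in PRATA replicate 2 (169.1 CPM, mostly from Chrna3) lay within the range of the other samples, 122 to 257 CPM. The summed level of 18 satellite glia and Schwann cell markers was 8485 CPM in PRATA replicate 2, against 5286 and 4477 CPM in PRATA replicates 1 and 3 and 5496 to 9827 CPM in the sham samples. Most of this sum was Apoe (5229 CPM in PRATA replicate 2), and the mean log2 (CPM + 1) of the same markers, which weights them equally, was highest in PRATA replicate 2, at 7.05 against 5.85 to 6.69 in the other samples. The sum over 12 macrophage markers was 87.9 CPM there, against 31.6 and 115.8 CPM in the other PRATA samples and 42.7 to 95.1 CPM in the sham samples. For the 9 matched endothelial markers it was 127.6 CPM, against 73.2 and 148 CPM and 29.7 to 174 CPM, and for the 11 matched fibroblast markers 1579 CPM, against 1192 and 3498 CPM and 2198 to 3139 CPM. The part of these cells in the levels of Gal, Npy and Vip was not tested.

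Because neuronal markers were higher after PRATA, each peptide was also read relative to them, by subtracting each sample's mean log2 (CPM + 1) of the 26 sensory neuron markers. This mean was 8.39, 8.05 and 8.48 in the PRATA samples and 7.63, 8.13 and 7.80 in the sham samples, and its subtraction moved the median difference of all genes tested from 0.03 to -0.42. On this scale Adcyap1 was still higher after PRATA by 0.76, without overlap, as were 1.13% of all genes tested. The margin between the groups was narrow, with PRATA replicate 3 at -2.026 and sham replicate 2 at -2.04. Tac1, with a difference of 0.43 before, came to -0.02, and Scg2 went from 0.79 to 0.33, both with overlapping groups. Sst went from 0.18 to -0.28, with every PRATA sample below every sham sample, as for 27.3% of all genes. For Gal, Npy and Vip the differences went from 1.20, 1.33 and 1.71 to 0.74, 0.87 and 1.26, with PRATA replicate 2 the highest sample for each and PRATA replicate 3 the lowest for Gal and Npy. Without PRATA replicate 2 these adjusted differences were -0.48, -0.56 and 0.14.

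**Figure D4:**
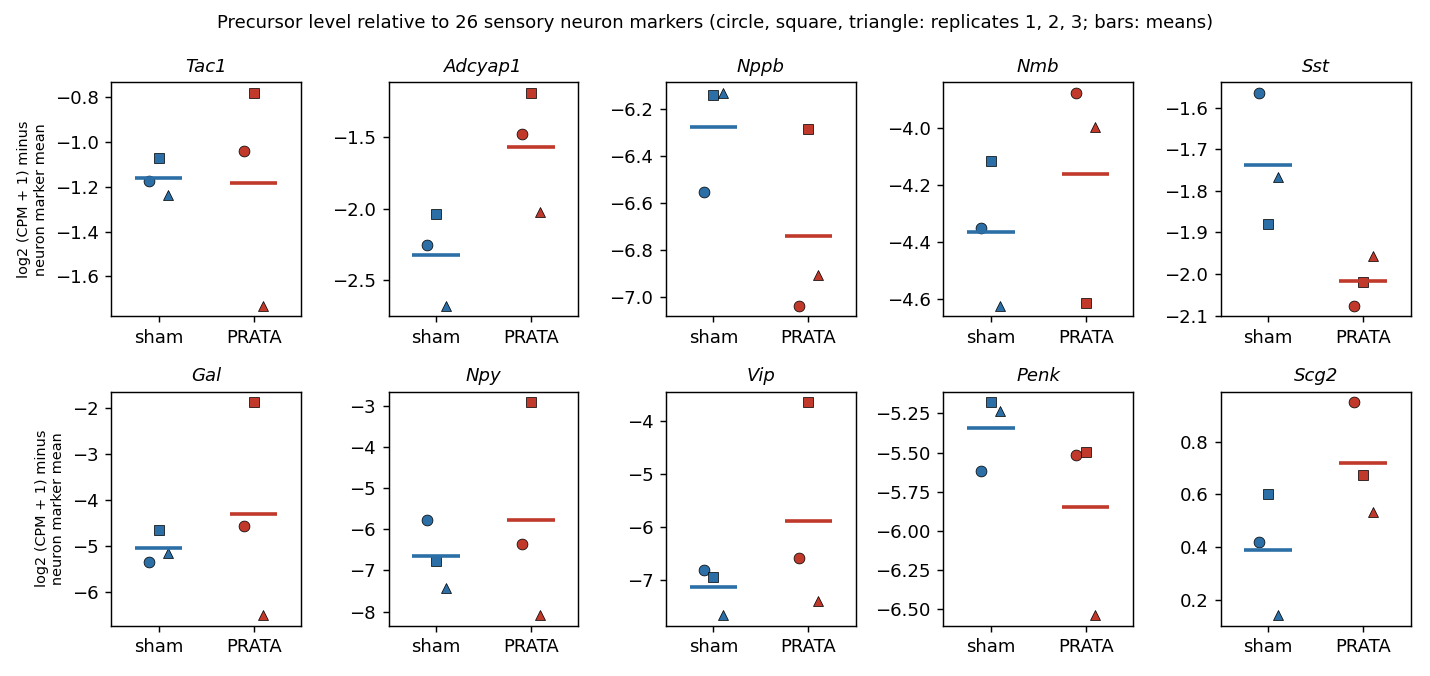
Level of each precursor relative to 26 sensory neuron markers, as log2 (CPM + 1) minus the sample's marker mean (blue, sham; red, PRATA; circle, square and triangle, replicates 1, 2 and 3; bars, group means; vertical axes differ between panels). Adcyap1 stays higher and Sst becomes lower after PRATA without overlap, and Tac1 shows group means that differ by 0.02. For Adcyap1 the nearest samples of the groups almost meet, at -2.026 (PRATA replicate 3) and -2.04 (sham replicate 2).

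The machinery that makes and stores peptides was read from a list of 24 genes of peptide processing and dense-core vesicles. Of 23 genes tested, 19 had a positive and 4 a negative log2 fold change (median 0.38), and 7 had an unadjusted p under 0.05, all of them higher after PRATA (beside 8.19% of all genes). The groups did not overlap for 6, all with PRATA higher (beside 11.6%), and 0 had an adjusted p under 0.05 in edgeR. Of the 26 sensory neuron markers, 8 were higher and 1 lower at that unadjusted p, with a larger median of 0.51. Whether the peptide machinery rose beyond neuronal markers in general was not tested. Vgf, a granin-like precursor that nerve growth factor induces, was at 171.6, 182.9 and 211.8 CPM after PRATA and 81.7, 103.8 and 79.8 CPM in the sham samples, which amounted to 1.10 on the log2 scale (standard error 0.18, adjusted p = 0.156 in edgeR). All PRATA samples lay well above all sham samples for Vgf. Chgb, the chromogranin B gene, had a log2 fold change of 0.69 with overlapping groups. The convertase gene Furin, at -0.44, and the vesicle protein gene Syt4, at -0.34, were lower in the mean, with overlapping groups. Pcsk1, the main convertase of many neuropeptides, stood at 107.5 to 129.2 CPM after PRATA and 113.4 to 140.6 CPM in the sham group.

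Receptors were read from a list of 24 genes for receptors of the 10 peptides and of their close relatives. Of these, 22 were in the table and 11 passed the filter. Of these 11, 9 had a positive and 2 a negative log2 fold change (median 0.45, but 0.04 without sham replicate 3 and 0.06 without sham replicate 1), and 1 had an unadjusted p under 0.05 (beside 18.3% of all genes in either direction and 8.19% upward). That gene was Npr2, the receptor of C-type natriuretic peptide, which is not among the 10 peptides, at 86.6, 79.7 and 89.0 CPM after PRATA and 54.0, 73.7 and 55.3 CPM in the sham samples, a difference of 0.48 on the log2 scale (adjusted p = 0.224 in edgeR) without overlap, as for 11.6% of all genes with PRATA higher. Oprm1, the mu opioid receptor gene, had a log2 fold change of 0.61. Adcyap1r1, the PACAP receptor gene, was at 2.06, 1.35 and 0.949 CPM after PRATA and 1.87, 3.12 and 1.51 CPM in the sham group, and Npr1, the receptor of the Nppb product, had a log2 fold change of -0.42. Galr1, a galanin receptor gene, was at 12.3 CPM in PRATA replicate 2, inside its range of 9.63 to 17.5 CPM in the other samples, while another galanin receptor gene, Galr3, had 0 to 4 reads per sample and Galr2 was not matched in the table. Npy1r, the Y1 receptor gene, was at 28.9, 34.7 and 17.8 CPM after PRATA and 22.6, 21.5 and 11.9 CPM in the sham group, with its highest value in PRATA replicate 2.

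Other neuropeptide precursors gave a mixed picture. Of 28 listed, 26 were in the table and 11 were tested, 6 with a positive and 5 with a negative log2 fold change (median 0.62, but 0.22 without PRATA replicate 3 and -0.10 without sham replicate 1). An unadjusted p under 0.05 was found for 3 higher after PRATA, Calca, Calcb and Cartpt, and for 1 lower, Nucb2 (beside 8.19% and 10.1% of all genes), and 0 had an adjusted p under 0.05 in edgeR. The CGRP genes Calca and Calcb had log2 fold changes of 0.85 and 0.69, beside 1.18 for Adcyap1 and 0.43 for Tac1 in the same samples. Cartpt, the precursor of the CART peptide, was at 16.9, 15.6 and 21.6 CPM after PRATA and 6.91, 13.6 and 6.14 CPM in the sham samples, a difference of 1.04 on the log2 scale (adjusted p = 0.187 in edgeR) without overlap, as for 11.6% of all genes with PRATA higher. Nucb2, the nesfatin precursor, had a log2 fold change of -0.73, and Adm, the adrenomedullin gene, of -0.59.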

How the data were processed

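The authors deposited a table of raw counts, whole numbers per gene and sample with no normalization. The submitters' processing notes name STAR 2.7.3a, RSEM and DESeq2, whereas the study's methods name HISAT2, StringTie and Cuffdiff for its stranded, ribosomal RNA-depleted libraries, with FPKM values that were not used here. Which of these made the counts is not settled by these sources, and the genome build, strand setting and handling of shared reads are not given in the sources used here, so reads of overlapping genes may be split. Gene lists were written from general knowledge, and 91.7% of the receptor list and 92.9% of the other precursor list matched the table. Members, lists and alternatives were chosen with earlier results of these data known.

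Testing used edgeR 4.0.16 in R 4.3.3 (filterByExpr, minimum count 10 and total 15, TMM, quasi-likelihood test without covariates), with limma 3.58.1 and DESeq2 1.42.0 as alternatives. CPM values carry SD over 3 samples, and standard errors follow from the F statistic. Counting error sets a floor of 3 reads, and PCR copies among reads cannot be told from separate molecules. Beside all 10 members, the genes named were the 2 with the smallest p in each direction of each list, Calca, Calcb, receptors of the members and the 3 profiles nearest to Tac1 and Gal, and further genes were named after their values were seen. The cAMP response element core and the TATA box were added to the motif search after the promoters were seen. Alternatives were DESeq2's size factors, library size alone, other filters, other tests, a replicate block, protein-coding genes alone, each sample left out and 4 samples without the pair high in Rn7sl1. The fit was tested on simulated data, where edgeR recovered 70.2% of genes changed 4-fold and 10.3% of those changed 2-fold among 14710 genes, with 8 false calls. DESeq2 made 43 false calls there, and 12 on simulated data without any change, where edgeR made 0. For limma-trend these numbers were 7 and 1, and for voom with sample quality weights 6 and 0. No library was simulated as standing apart from its group, as some did here. Replicate numbers are shared between the groups, but the labels do not say that they pair samples, and samples with the same number deviated from their group's mean in opposite rather than like ways (r between -0.388 and -0.105).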

Additional observations from a re-analysis of the deposited data

How the results depend on the processing

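Of the 10 members, the log2 fold changes of 8 kept their sign under every alternative that gave a value, and those of Nppb and Penk did not: they came to 0.037 and 0.095 with limma voom and sample quality weights, and with single samples left out they ranged from -0.376 to 0.290 and from -0.338 to 0.231. Npy and Vip gave no value where at least 10 counts were required in every sample. Members with an adjusted p under 0.05 numbered 0 in edgeR, 1 in DESeq2, 2 with voom weights and 0 to 1 with a sample left out, and those with an unadjusted p under 0.05 numbered 3, against 6 without a filter and 1 to 6 with a sample left out. Over all genes, those with an adjusted p under 0.05 numbered 0, against 728 in DESeq2, 1173 with voom weights, 13 in the 4 samples without the pair high in Rn7sl1, and 0 to 721 with a sample left out (721 without sham replicate 2). Genes past the unadjusted p and fold thresholds numbered 657, against 1379 without a filter, 337 with limma-trend, 1002 with voom weights, 994 in the 4 samples and 485 to 1034 with a sample left out. The cause of these differences was not tested.

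The median log2 fold change without a filter was -0.136 for receptors, -0.166 for other precursors and -0.737 for sympathetic markers. In the 4 samples it was 0.216 for receptors and 0.284 for other precursors, and with voom weights 0.679 for receptors. With a sample left out it ranged from 0.044 to 0.646 for receptors, from -0.099 to 0.596 for other precursors, from 0.239 to 0.871 for the injury response and from -1.261 to -0.207 for fibroblast markers. Without subtraction of the neuron marker mean, the member differences were 0.432 for Tac1, 1.21 for Adcyap1, -0.014 for Nppb, 0.655 for Nmb, 0.175 for Sst, -0.053 for Penk and 0.785 for Scg2. A fit with a replicate block gave log2 fold changes of 1.23 for Adcyap1 (adjusted p = 0.461 in edgeR), 1.36 for Gal, 1.87 for Npy and 2.96 for Vip, and 519 genes passed the unadjusted thresholds. With the block 0 genes had an adjusted p under 0.05 in edgeR, as without it. Whether the replicate numbers pair the samples is not known from the labels. Depth limits Nppb, Npy and Vip most, with 1 to 38 reads per sample outside PRATA replicate 2.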

Other observations

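Some genes under the filter on low counts were also highest in PRATA replicate 2, and they entered no comparison. Ucn, the precursor of the peptide urocortin, was at 2.07 CPM (26 reads) there and at most 0.156 CPM in the other 5 samples. Sprr1a, a gene known to be switched on in DRG neurons after axotomy, was at 3.11 CPM there and at most 0.468 CPM elsewhere. Pdyn, the dynorphin precursor, was at 1.43 CPM there and at most 0.780 CPM elsewhere, and Cckbr, the cholecystokinin B receptor gene, at 3.51 CPM against at most 1.72 CPM. These genes were chosen after their values were seen. Others under the filter, such as Sstr3, Phox2a and Gata3, were highest in sham replicate 2. How many genes under the filter peaked in each sample was not counted.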
